A study of Mus musculus with 18 samples.

Results

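Protocadherins, the largest family of cadherin adhesion proteins, were followed in inguinal white fat of mice that carried a lung tumour and of tumour-free controls. The members are all gene IDs whose deposited symbol begins with Pcdh, 69 of 21899 IDs in the tables. They comprise 57 clustered genes (14 Pcdha, 22 Pcdhb and 21 Pcdhg genes) and 12 single genes. The libraries were made from inguinal fat of male C57BL/6J mice that received, under the skin, either LLC, the Lewis lung carcinoma line grown from a mouse tumour, or phosphate-buffered saline (PBS). At day 21, called cachexia in the labels, there were 5 LLC and 4 PBS libraries, and at day 7, called pre-cachexia, again 5 LLC and 4 PBS libraries. The labels name no engineered allele, and the sources used here give no age. Samples are numbered within a group with no statement on animals or cultures, and the spread that the p-values rest on may therefore be technical.

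Clustered protocadherins sit in 3 neighbouring arrays. Each variable exon of the alpha and gamma arrays has its own promoter and is spliced to constant exons that its whole array shares, whereas each beta gene is a single exon without a shared cytoplasmic tail. The choice of promoter depends on CTCF and cohesin and is largely random for most isoforms of a neuron, while the C-type isoforms at the end of the alpha and gamma arrays are expressed more broadly. The proteins pair with like proteins on the next cell and are best known for giving neurons their identity. Single protocadherins of the delta groups signal through cytoplasmic motifs that bind phosphatases and actin regulators.

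Promoter sequences are shown for Pcdh18 and Pcdh20, the single genes that were lower at day 21 in the PBS comparison described further on. They are the 250 bases before the RefSeq gene start on GRCm38.p6, both on the reverse strand, at chr3:49757317-49757566 for Pcdh18 and at chr14:88471397-88471646 for Pcdh20. Capitals mark GGGCGG, the core of the GC box that Sp1-type factors bind, searched on both strands as GGGCGG and CCGCCC.
Pcdh18: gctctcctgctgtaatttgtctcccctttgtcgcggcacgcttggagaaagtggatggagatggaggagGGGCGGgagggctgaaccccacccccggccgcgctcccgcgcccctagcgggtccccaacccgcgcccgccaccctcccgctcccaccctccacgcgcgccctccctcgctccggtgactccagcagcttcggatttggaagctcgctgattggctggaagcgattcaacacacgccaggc
Pcdh20: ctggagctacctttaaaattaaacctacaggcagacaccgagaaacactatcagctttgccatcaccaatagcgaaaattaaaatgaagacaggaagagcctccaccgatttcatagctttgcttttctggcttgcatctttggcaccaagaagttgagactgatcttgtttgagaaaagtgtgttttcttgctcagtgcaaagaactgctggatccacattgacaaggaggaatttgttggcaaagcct
The genes themselves, Pcdh18 (ENSMUSG00000037892) and Pcdh20 (ENSMUSG00000050505), span 49743296 to 49757325 on chromosome 3 and 88464743 to 88471396 on chromosome 14, so that the Pcdh18 window overlaps the end of the GENCODE gene. The Pcdh18 window held the motif 1 time and had 68.0% G and C. The Pcdh20 window held it 0 times and had 42.4% G and C. Over all 32851 promoter windows of this length, 32.7% held the motif and the median was 52.4% G and C. Neither window held TATAAA or its complement TTTATA, which 12.4% of all windows did.

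On the reference annotation of GRCm38, all 57 clustered genes lie on the forward strand of chromosome 18, between 36930184 (the start of Pcdha1) and 37841873 (the shared end of the gamma genes). A gamma gene shared between 27.8% and 66.8% of its exonic bases with another member (median 44.6%), and an alpha gene between 38.0% and 54.9% (median 53.4%). Pcdhgb6 (ENSMUSG00000103088) spans 37742094 to 37841873, Pcdhga11 (ENSMUSG00000102742) 37755731 to 37841873, Pcdhgc3 (ENSMUSG00000102918) 37806364 to 37841873 and Pcdhgc4 (ENSMUSG00000023036) 37815079 to 37841873. Among the beta genes, 2 of 22 overlapped another member. Of the distinct 50-base stretches in annotated transcripts, a median of 44.4% for gamma genes and 59.6% for alpha genes recurred in another member, against 4.26% for beta genes and 0% for single genes. Values of alpha and gamma genes are therefore estimates of how shared reads divide, and are less certain than their sum over the array. The share recurring in any other gene, in the family or not, had medians of 45.3% (gamma), 61.0% (alpha), 4.48% (beta) and 0% (single genes). It was 72.4% for Pcdhga11, 65.2% for Pcdhgc3, 51.4% for Pcdhgb6 and 37.1% for Pcdhgc4. Among single genes it reached 20.4% (Pcdh7) and was 0% for Pcdh18 and Pcdh20. Sums over an array do not remove sharing with genes outside the family. The protocol names no strand-marking step, so reads of antisense partners cannot be told apart.

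Fat expressed mainly the C-type gamma genes and a handful of single genes. On the length-corrected TPM scale, averaged over the 18 libraries, Pcdhgc3 stood at 64.3 TPM and Pcdhgc4, a C-type gamma gene that mouse interneurons need for survival, at 54.8 TPM. The single gene Pcdh1, a delta-1 member known from epithelia, followed at 19.3 TPM, and Pcdh7, a delta-1 member that binds protein phosphatase 1, at 8.93 TPM. Next were Pcdh19, a delta-2 member linked in humans to epilepsy (5.82 TPM), Pcdh12, the endothelial protocadherin (5.41 TPM), Pcdh18, a delta-2 member whose tail binds Dab1 in mice (4.33 TPM), and Pcdh20 (3.59 TPM). The other gamma genes, of the A and B types, averaged at most 3.43 TPM (Pcdhgb6), followed by Pcdhgb2 at 3.25 TPM. The highest beta genes were Pcdhb17 (3.15 TPM), Pcdhb22 (2.63 TPM), Pcdhb16 (1.43 TPM) and Pcdhb20 (1.17 TPM). Pcdhgc3 and Pcdhgc4 together took between 35.5% and 59.1% of all protocadherin counts in a library. Annotated protein-coding transcripts of Pcdhgc4 are 5024 and 2272 bases long and that of Pcdhgc3 is 4687 bases long, so the TPM of Pcdhgc4 depends on which length the authors' estimation assigned.

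The alpha array was nearly silent. Its highest member was Pcdhac2, a C-type gene needed for the wiring of serotonin neurons in mice, with 0.20 to 1.58 CPM in day 21 LLC libraries against 1.54 CPM in day 21 PBS library 4 and 0 in day 21 PBS libraries 1 to 3, where 3 counts would be 0.181 to 0.196 CPM. CPM here are counts scaled to library size, with TMM factors over all 18 libraries. At day 7, Pcdhac2 had 0.662 to 2.25 CPM in LLC libraries and 0.351 to 1.31 CPM in PBS libraries. Pcdha4 had counts in 2 of 5 LLC and 3 of 4 PBS libraries at day 21 and in 2 of 5 LLC and 0 of 4 PBS libraries at day 7, with at most 18 counts. In day 21 PBS libraries 1 to 3, where Pcdhac2 was at 0, Pcdha4 had 5, 16 and 18 counts. The alpha sum was 1.49 ± 0.490 CPM in day 21 LLC and 1.31 ± 0.334 CPM in day 21 PBS libraries (SD, n = 5 and n = 4). At day 7 it was 1.61 ± 0.381 CPM in LLC and 1.37 ± 0.287 CPM in PBS libraries. These sums overlapped between LLC and PBS and between days, and were not tested. Pcdha10 and Pcdha11 reached at most 0.713 and 0.0598 CPM in any library. Pcdha6, Pcdha7, Pcdha12 and Pcdhb1 were at 0 in every library, which allows each up to 3 of the 304216057 counts in all. After the filter on low counts, 50 members were tested in at least 1 comparison: 2 alpha, 19 beta, 21 gamma and 8 single genes. The 19 others had at most 244 counts over all libraries.

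Library totals ranged between 14566155 and 18969387 counts, of which 5721 to 10336 were protocadherin counts. Markers of mature fat cells, such as Adipoq and Plin1, were detected in every library. Other marker lists set several libraries apart. The score of progenitor and fibroblast markers (mean log2 distance of 10 genes from their mean over all libraries) was -1.73 to -1.35 in day 21 PBS libraries 1 to 3 but 0.45 in day 21 PBS library 4, against 0.68 to 1.08 in day 7 PBS libraries. The B cell score was 7.36 in day 21 LLC library 3 and at most 0.96 elsewhere, and skeletal muscle markers summed to between 1.13 and 6417 CPM, varying widely within each group. In tissue RNA, fewer cells of a type and less RNA per cell cannot be told apart.

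The comparison at day 21 asks how the tumour is reflected in fat at the cachexia stage. Within the gamma array, C-type genes had log2 fold changes of LLC over PBS below 0 and B-type genes above 0, and no member passed the threshold. EdgeR's quasi-likelihood test, adjusted over 13564 genes, called 0 of 49 members (background 0.0885% of genes), with 6 of 49 at an unadjusted p under 0.05 (background 23.3%). Groups did not overlap in CPM for 4 of 49 members, 3 higher and 1 lower in LLC, against 9.7% of all genes (5.23% higher and 4.47% lower). DESeq2 called 3 of 49 members and 1555 of all 13564 genes, and limma on log2(TPM + 1) called 0 members and 61 of all genes. None of the totals called, at an unadjusted p under 0.05 or without overlap exceeds its share over all genes. Of the parts, the 3 of 49 higher without overlap lay slightly above 5.23%.

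Pcdhgc4 had 60.6, 60.3, 45.9, 62.9 and 68.6 CPM in day 21 LLC libraries, against 113, 101, 77.3 and 86.0 CPM in day 21 PBS libraries. All LLC values lay below all PBS values on this scale. In TPM the groups overlapped, with 36.9 to 60.6 TPM in LLC and 52.2 to 90.3 TPM in PBS libraries. The log2 fold change of Pcdhgc4 was -0.68 with an SE of 0.15 (edgeR adjusted p = 0.0676). Errors of log2 values given with ± below are SE. Pcdhgc3 ranged more widely, with 175, 163, 76.2, 92.2 and 128 CPM in day 21 LLC libraries against 222, 192, 185 and 141 CPM in day 21 PBS libraries. LLC libraries 1 and 2 overlapped the PBS range, and the log2 fold change was -0.56 ± 0.26 (adjusted p = 0.22). The weakly expressed Pcdhgc5 had 0 to 2.31 CPM in LLC and 0.307 to 1.89 CPM in PBS libraries.

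Pcdhgb6, a B-type isoform, ran the other way. It measured 8.26, 8.89, 10.4, 8.87 and 8.27 CPM in day 21 LLC libraries, against 5.84, 4.97, 4.95 and 6.33 CPM in day 21 PBS libraries. Each LLC library exceeded each PBS library, and the log2 fold change was 0.67 ± 0.16 (edgeR adjusted p = 0.078). Pcdhga11, an A-type isoform, had 3.49, 3.69, 3.72, 3.1 and 3.87 CPM in LLC libraries and 1.33, 2.96, 1.43 and 2.03 CPM in PBS libraries. These also did not overlap (log2 0.86 ± 0.29, adjusted p = 0.129). Pcdhgb2, another B-type isoform, had 6.38 to 12.1 CPM in LLC and 5.30 to 6.13 CPM in PBS libraries, again without overlap. Its log2 fold change was 0.49 ± 0.22 (edgeR adjusted p = 0.213). In TPM, Pcdhgb6 stayed without overlap (LLC from 2.53, PBS up to 2.42). Pcdhga11 (LLC from 0.872, PBS up to 0.997) and Pcdhgb2 (LLC from 2.07, PBS up to 2.33) overlapped in TPM. All 6 B-type genes had a positive log2 fold change (median 0.37), as did 7 of 12 A-type genes (median 0.31), and all 3 C-type genes a negative one, while the median over all genes was 0.02 and 51.9% of them were positive. With a replicate block, or without LLC library 4, LLC library 5 or PBS library 4, 5 of 6 B-type genes were positive. The A-type median was 0.18 without LLC library 5 and 0.19 with a replicate block, where 9 of 12 were positive, and 0.50 when LLC libraries 1 and 3 and PBS library 4 were left out together. The count was 7 to 9 of 12 with 1 library left out. On the log2(TPM + 1) scale 10 of 12 A-type genes were positive, where the median over all genes was 0.13.

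**Figure D1:**
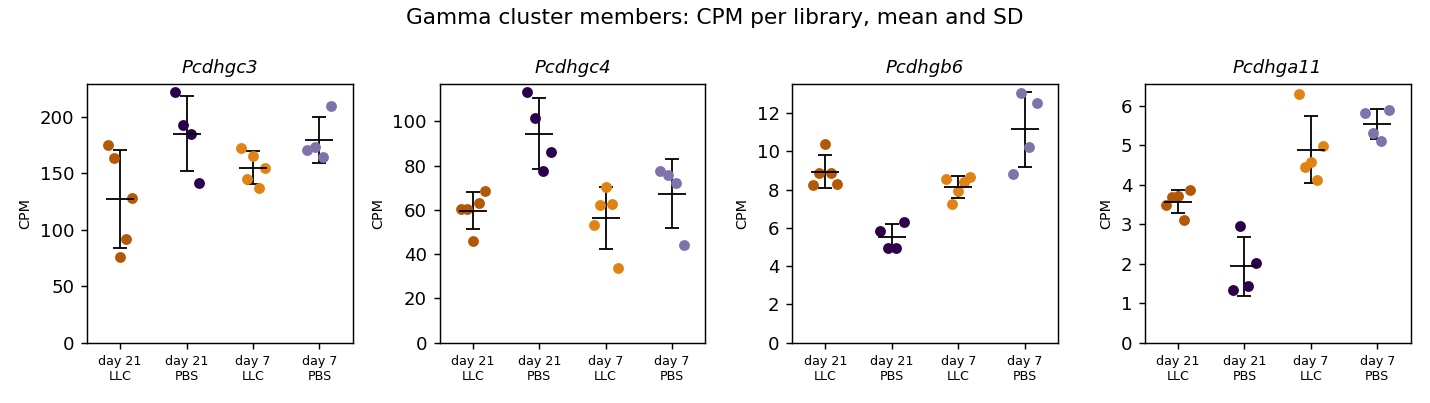
CPM per library (vertical axes, linear, from 0) of 4 gamma genes in the 4 groups, with a point for each library, a horizontal bar for the mean and whiskers for the SD. At day 21 the LLC points of Pcdhgc4 (45.9 to 68.6 CPM) lie below the PBS points (77.3 to 113 CPM), and those of Pcdhgb6 and Pcdhga11 lie above the PBS points.

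Other tools and sample sets passed some of these genes. In DESeq2, Pcdhgc4 (adjusted p = 0.00204) fell and Pcdhgb6 (0.00227) and Pcdhga11 (0.0378) rose, and in 1 fit of all 18 libraries these 3 passed together with Pcdhb22, 4 of 50 members against 2660 of 13975 genes. Without day 21 PBS library 4, edgeR called Pcdhgc4 (-0.73, adjusted p = 0.0297), Pcdhgb6 (0.74, 0.0371), Pcdh20 (3.14, 0.00188) and Pcdhac2, 4 of 50 members against 1277 of 13726 genes. In each of these fits the share of members called was below that of all genes. For Pcdhac2, the sum over its alpha array overlapped between LLC and PBS, as given above. In the authors' deposited table, the FDR was 0.0109 for Pcdhgb6, 0.0319 for Pcdhgc4 and 0.0367 for Pcdhga11.

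Summed over the array, gamma genes measured 261 ± 49.9 CPM in day 21 LLC (SD, n = 5) and 341 ± 51.4 CPM in day 21 PBS libraries (n = 4), and the ranges overlapped. The division inside the array did not overlap. C-type genes took 78.2%, 75.2%, 64.2%, 68.5% and 69.3% of gamma counts in LLC libraries 1 to 5, against 82.7%, 84.6%, 80.5% and 80.4% in PBS libraries 1 to 4. At day 7 this share was 72.6% to 75.2% in LLC and 71.5% to 75.7% in PBS libraries, so the day 21 PBS libraries lay above all others. The 6 B-type genes together had 29.5 to 41.5 CPM in day 21 LLC and 22.9 to 28.9 CPM in day 21 PBS libraries. In summed TPM they overlapped, with 9.78 to 15.7 TPM in LLC and 7.82 to 11.3 TPM in PBS libraries. No test was run on these sums and shares. Markers of Schwann cells and nerve, all 8 of them detected in every library, summed to 252 to 570 CPM in day 21 LLC and 572 to 1128 CPM in day 21 PBS libraries, and their score overlapped (-0.90 to 0.19 in LLC, -0.09 to 0.47 in PBS). The macrophage score was -0.73 to 1.22 (median 0.04) in day 21 LLC and -2.47 to 0.82 (median -1.80) in day 21 PBS libraries. Progenitor and fibroblast scores had a median of -0.56 in day 21 LLC and -1.45 in day 21 PBS libraries. The mature adipocyte score was -0.63 to 0.22 (median -0.34) in day 21 LLC and -0.06 to 0.58 (median 0.39) in day 21 PBS libraries. The endothelial score was -0.34 to 0.36 in day 21 LLC and -0.48 to -0.09 in day 21 PBS libraries. The part of these markers in the division of the array was not tested.

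**Figure D2:**
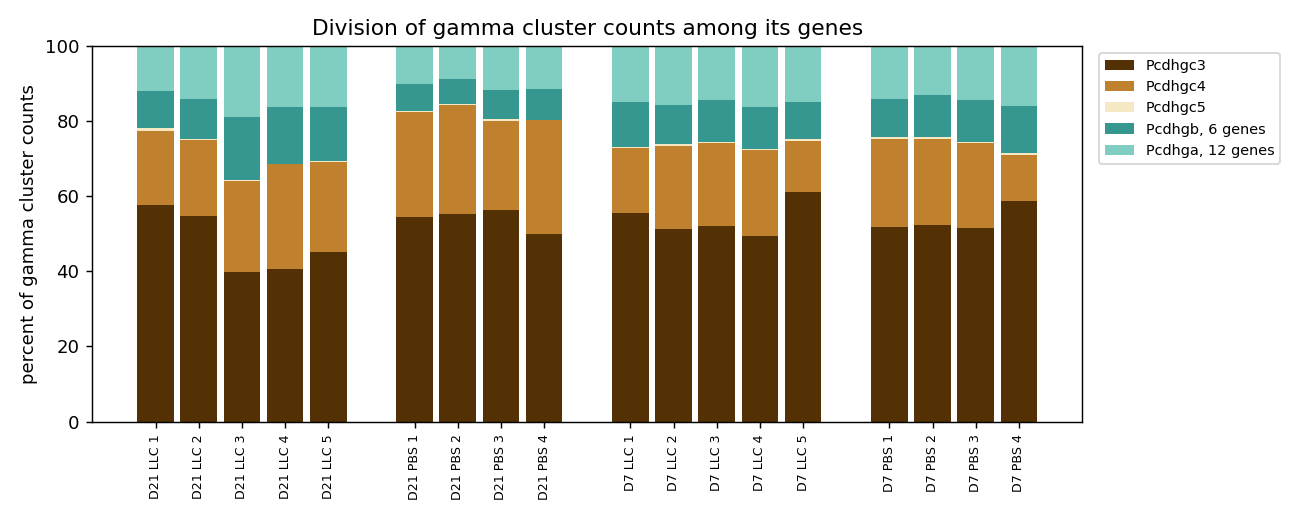
Percent of gamma array counts (vertical axis) taken by Pcdhgc3, Pcdhgc4, Pcdhgc5, the 6 Pcdhgb and the 12 Pcdhga genes, with 1 stacked bar per library. In the 4 day 21 PBS bars the C-type genes reach 80.4% to 84.6%, and in the 5 day 21 LLC bars 64.2% to 78.2%.

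Beta genes, which lack a shared tail, had no member past the threshold at day 21. Of 18 tested, 8 had a positive and 10 a negative log2 fold change, with a median of -0.05. In edgeR 2 of 18 had an unadjusted p under 0.05, against 23.3% of all genes. DESeq2 called 0 of them, against 1555 of all 13564 genes. Pcdhb22 measured 3.86 to 7.27 CPM (median 5.67) in LLC and 6.57 to 10.2 CPM (median 8.95) in PBS libraries, at -0.64 ± 0.24 (adjusted p = 0.157). Pcdhb17 was at -0.43 ± 0.20 (adjusted p = 0.227). Pcdhb16 (-0.11 ± 0.22) and Pcdhb20 (0.18 ± 0.27) lay within their errors of 0. The beta sum was 41.7 ± 7.35 CPM in LLC and 46.7 ± 1.35 CPM in PBS libraries (SD, n = 5 and n = 4).

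Single genes at day 21 overlapped between LLC and PBS throughout, and 0 of 8 passed in edgeR. At an unadjusted p under 0.05 there were also 0 of 8, against 23.3% of all genes. DESeq2 called 0 of them, against 1555 of 13564 genes. Pcdh20 had 6.54, 4.86, 7.99, 6.21 and 6.34 CPM in LLC libraries against 0.843, 0.881, 0.391 and 6.94 CPM in PBS libraries. PBS library 4 alone fell within the LLC range. The log2 fold change was 1.47 ± 0.74 (adjusted p = 0.255) with that library and 3.14 ± 0.36 without it (adjusted p = 0.00188). It also had the progenitor score nearest to day 7, and the part of that difference in the result was not tested. Pcdh18 was at 0.47 ± 0.22 (adjusted p = 0.234), Pcdh17, which organises presynaptic zones in mouse brain, at 0.40 ± 0.30, and Pcdh19 at 0.22 ± 0.24. Pcdh9, a delta-1 member, was at 0.28 ± 0.46, Pcdh1 at 0.10 ± 0.18, Pcdh12 at -0.17 ± 0.28 and Pcdh7 at -0.34 ± 0.23.

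At day 7 no protocadherin passed the threshold, and most gamma genes had log2 fold changes below 0. The gamma sum, which was not tested, was 288 ± 26.5 CPM in LLC (SD, n = 5) and 334 ± 15.9 CPM in PBS libraries (n = 4), with a highest LLC value of 318 CPM and a lowest PBS value of 319 CPM. In summed TPM the groups overlapped, with 109 to 173 TPM in LLC and 156 to 184 TPM in PBS libraries. By edgeR, 0 of 49 members passed (background 0.00744%). DESeq2 and limma also called 0 members, against 80 and 1 of 13445 genes. An unadjusted p under 0.05 was found for 4 of 49 (background 8.51%). In CPM, 3 of 49 did not overlap between groups, all lower in LLC (background 2.52%, and 1.35% lower). Log2 fold changes were negative for all 6 B-type, all 3 C-type and 8 of 12 A-type genes, while 51.1% of all genes were positive. With the replicate number as a block, which leaves out LLC library 5, they were negative for 4 of 6 B-type, 3 of 3 C-type and 5 of 12 A-type genes. Without LLC library 5 or PBS library 4 they were negative for 4 of 6 B-type and 6 of 12 A-type genes, and without LLC library 4 for 5 of 6 B-type genes.

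The members without overlap in CPM at day 7 were Pcdh18, Pcdhgb6 and Pcdhga7. In TPM, Pcdh18 (LLC up to 5.99, PBS from 5.33) and Pcdhgb6 (LLC up to 3.56, PBS from 3.37) overlapped. Pcdhga7 did not (LLC up to 1.53, PBS from 1.57). Pcdh18 had 12.7, 11.4, 14.8, 13.5 and 13.4 CPM in day 7 LLC libraries and 15.5, 20.4, 14.9 and 23.1 CPM in day 7 PBS libraries, at a log2 fold change of -0.49 ± 0.14 (edgeR adjusted p = 0.408). The gap between the highest LLC and the lowest PBS library was narrow (14.8 and 14.9 CPM). Pcdhgb6 had 8.53, 7.25, 7.94, 8.41 and 8.65 CPM in LLC and 8.84, 13.0, 10.2 and 12.5 CPM in PBS libraries, at -0.45 ± 0.13 (adjusted p = 0.408). Pcdhga7, an A-type isoform, had 2.32 to 3.26 CPM in LLC and 3.57 to 4.00 CPM in PBS libraries, at -0.47 ± 0.16 (adjusted p = 0.483). Pcdhgc3 was at -0.21 ± 0.09 (adjusted p = 0.585) and Pcdhgc4 at -0.25 ± 0.21. The other single genes lay between -0.69 ± 0.32 (Pcdh9) and 0.16 ± 0.25 (Pcdh17). The 19 beta genes had a median of 0.04, with 12 positive and 7 negative.

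**Figure D3:**
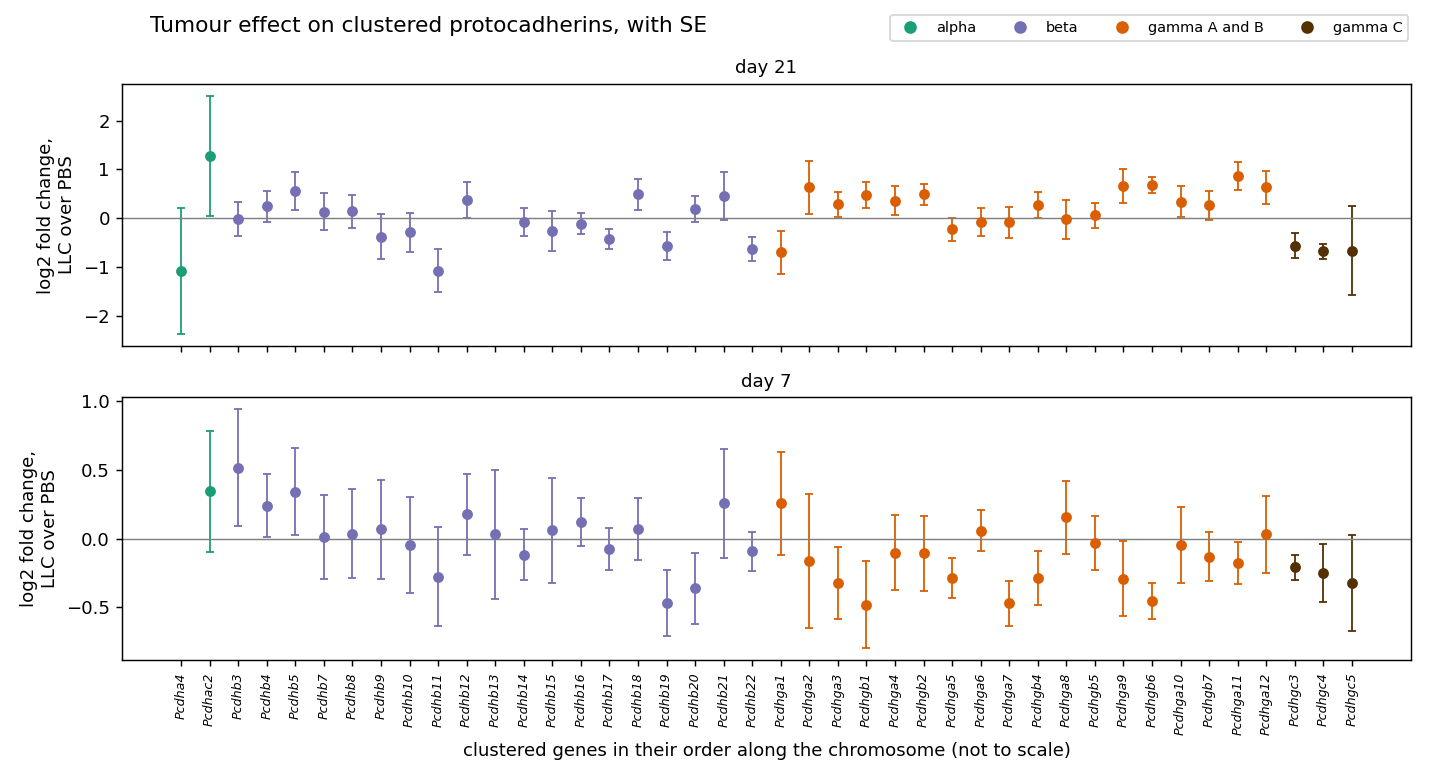
Log2 fold change of LLC over PBS with its SE (vertical axes, with a different range in each panel) for each tested clustered gene, in chromosome order and coloured by array, at day 21 (top) and day 7 (bottom). At day 21 the 3 C-type genes at the right end lie below 0 and the 6 Pcdhgb genes above it, whereas at day 7 both lie below 0.

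The difference of the tumour effect between the days was tested directly in 1 fit of all 18 libraries. Pcdhgb6 was the member that passed, 1 of 50 against a background of 0.415% of genes (0.265% higher). Its log2 LLC over PBS effect was 1.14 ± 0.19 higher at day 21 than at day 7 (edgeR adjusted p = 0.0191). The call was lost without day 7 PBS library 2 or 4, or without day 21 PBS library 1, 2 or 3, with adjusted p between 0.0505 and 0.0663, and log2 differences of 1.06 to 1.17. Between days, Pcdhgb6 fell within PBS (-1.01 ± 0.14, edgeR adjusted p = 0.00241) and was not called within LLC, as described below. Next in order were Pcdh18 at 0.98 ± 0.25 (adjusted p = 0.0775) and Pcdhga11 at 1.06 ± 0.30 (adjusted p = 0.0918), which did not pass. Those 2 passed in DESeq2, which called 3 of 50 members and 722 of 13975 genes, and without day 21 PBS library 4, where 5 of 51 members and 1222 of 14146 genes were called. Pcdh20 was at 2.01 ± 0.82 (adjusted p = 0.201) and, without day 21 PBS library 4, at 3.68 ± 0.54 (adjusted p = 0.000655).

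The comparison of days within PBS fat, which shares its day 21 and day 7 PBS libraries with the comparisons above, gave the most calls. Libraries of different days may also differ in animal age, collection or library batch, which cannot be told apart from day, here or within LLC. In edgeR, 4 of 50 members fell and 0 rose, against 3.21% of all genes called and 2.52% called lower. The 4 were the single genes Pcdh18 and Pcdh20 and the gamma genes Pcdhgb6 and Pcdhga11. Groups did not overlap in CPM for 9 of 50 members, all lower at day 21, against 16.3% of all genes (8.38% lower). Negative log2 fold changes were seen in 7 of 8 single, 10 of 12 A-type, all 6 B-type and 1 of 3 C-type genes, while 50.9% of all genes were positive. The B-type count was 5 of 6 without day 21 PBS library 4 or day 7 PBS library 4, and the C-type count was 0 of 3 without day 21 PBS library 4 and 2 of 3 without day 21 PBS library 1.

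Pcdh18 fell to 5.36, 6.11, 4.50 and 6.82 CPM in day 21 PBS libraries, against 15.5, 20.4, 14.9 and 23.1 CPM in day 7 PBS libraries. The groups did not overlap, and the gap between them exceeded the SD of either group. The log2 fold change was -1.70 ± 0.19 (edgeR adjusted p = 0.000292). Pcdhgb6 was at 5.52 ± 0.677 CPM in day 21 PBS and 11.2 ± 1.97 CPM in day 7 PBS libraries (SD, n = 4 each), a log2 fold change of -1.01 ± 0.14 (adjusted p = 0.00241). Pcdhga11 was at 1.94 ± 0.748 CPM in day 21 PBS and 5.54 ± 0.386 CPM in day 7 PBS libraries, a log2 fold change of -1.51 ± 0.23 (adjusted p = 0.00317). All 3 passed in each of 13 other settings and sample sets. In contrast, the C-type genes Pcdhgc3 (0.05 ± 0.21) and Pcdhgc4 (0.49 ± 0.21, adjusted p = 0.198) did not pass.

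Pcdh20 fell further, with a log2 fold change of -2.90 ± 0.65 (edgeR adjusted p = 0.0269) and day 7 PBS values of 16.5, 16.4, 15.6 and 19.6 CPM against the day 21 PBS values given above. The call was lost without day 7 PBS library 1, 2 or 4, or without day 21 PBS library 1, 2 or 3 (adjusted p between 0.0524 and 0.113). Without day 21 PBS library 4 the log2 fold change was -4.57 (adjusted p = 1.45e-05). Pcdh19 was at -0.75 ± 0.21 (adjusted p = 0.0576), Pcdh1 at -0.40 ± 0.15 (0.152), Pcdh9 at -0.97 ± 0.43 (0.211) and Pcdh12 at -0.46 ± 0.25 (0.307). Pcdh17 (-0.16 ± 0.30) and Pcdh7 (0.06 ± 0.20) lay within their errors of 0. Without day 21 PBS library 4, 7 of 51 members were called lower, against 1202 of 14146 genes, the additional members being Pcdh19, Pcdh1 and Pcdhac2. The alpha sum, to which Pcdhac2 belongs, overlapped between the days within PBS. DESeq2 called 6 of 50 lower, against 696 of 13975 genes. Of the 19 beta genes 8 were positive and 11 negative, and 0 passed.

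Within LLC fat, Pcdh18 was the member that passed between days, 1 of 50 against a background of 1.77% (0.93% lower). Groups did not overlap in CPM for 2 of 50 members, Pcdh18 and Pcdhga11, both lower at day 21 (background 3.33%, and 1.64% lower). In TPM, Pcdh18 overlapped (up to 4.545 at day 21, from 4.274 at day 7) and Pcdhga11 narrowly did not (up to 1.729, from 1.731). Pcdh18 fell to 10.1, 7.55, 5.41, 8.17 and 8.87 CPM in day 21 LLC libraries, against 12.7, 11.4, 14.8, 13.5 and 13.4 CPM in day 7 LLC libraries. Its log2 fold change was -0.71 ± 0.17 (edgeR adjusted p = 0.0428). The call was lost in 10 of 16 other settings, which were no filter on low counts, a replicate block, and leaving out any 1 day 7 LLC library or day 21 LLC library 3, 4 or 5. Adjusted p there was at most 0.104. Pcdh19 was at -0.52 ± 0.18 (adjusted p = 0.142), or -0.73 ± 0.16 without day 21 LLC library 1 (adjusted p = 0.0175, where 1036 of 13923 genes were called), and Pcdh1 at -0.35 ± 0.14 (adjusted p = 0.179). Pcdhga11 had 3.1 to 3.87 CPM at day 21 and 4.13 to 6.31 CPM at day 7 (adjusted p = 0.229), and Pcdhgb6 was at 0.13 ± 0.12. Pcdh20 had 3.44 CPM in day 7 LLC library 5, below all day 21 LLC libraries, and 9.40 to 16.5 CPM in the other day 7 LLC libraries, at -0.89 ± 0.53 (adjusted p = 0.389).

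**Figure D4:**
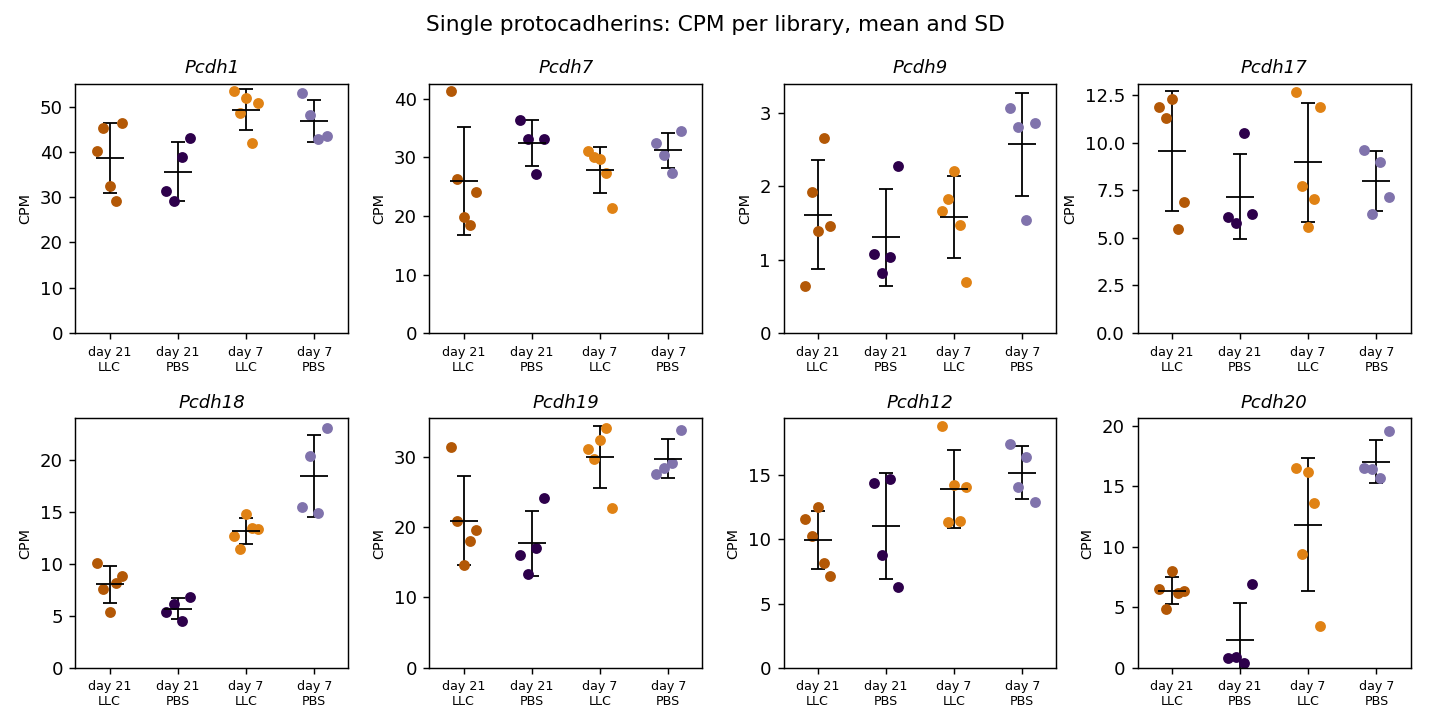
CPM per library (vertical axes, linear, from 0) of the 8 tested single genes in the 4 groups, with a point for each library, a horizontal bar for the mean and whiskers for the SD. Pcdh18 is lowest in day 21 PBS (4.50 to 6.82 CPM) and highest in day 7 PBS (14.9 to 23.1 CPM), and the lone high point of Pcdh20 in day 21 PBS is library 4 (6.94 CPM).

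Progenitor and fibroblast markers also had a lower median score at day 21 than at day 7. It was -0.56 against 0.75 in LLC and -1.45 against 0.76 in PBS libraries. The progenitor and fibroblast score was -0.97 to 0.37 in day 21 LLC and -1.73 to 0.45 in day 21 PBS libraries, against -0.27 to 0.90 in day 7 LLC and 0.68 to 1.08 in day 7 PBS libraries, and all 10 markers were detected throughout. Their summed level was 2989 to 12568 CPM in day 21 LLC, 2309 to 13808 CPM in day 21 PBS, 5431 to 14665 CPM in day 7 LLC and 11216 to 17118 CPM in day 7 PBS libraries. Macrophage scores were -2.47 to 0.82 in day 21 PBS and 0.20 to 0.93 in day 7 PBS libraries. The part of these markers in the falls was not tested. In day 21 PBS library 4, whose progenitor score of 0.45 lay within the day 7 LLC range, Pcdh18 (6.82 CPM), Pcdhgb6 (6.33 CPM) and Pcdhga11 (2.03 CPM) were below every day 7 library. Pcdh20 (6.94 CPM), Pcdhac2 (1.54 CPM), Pcdh18 and Pcdhgb6 in that library were above every other library of its group, and Pcdhga11 was not. Among the other tested single genes, Pcdh1, Pcdh9 and Pcdh19 were also highest of the group there, and Pcdh7, Pcdh12 and Pcdh17 were not. Day 7 LLC library 5, with the lowest progenitor score of its day (-0.27), had the lowest Pcdh20 of its day (3.44 CPM) and 13.4 CPM of Pcdh18.

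**Figure D5:**
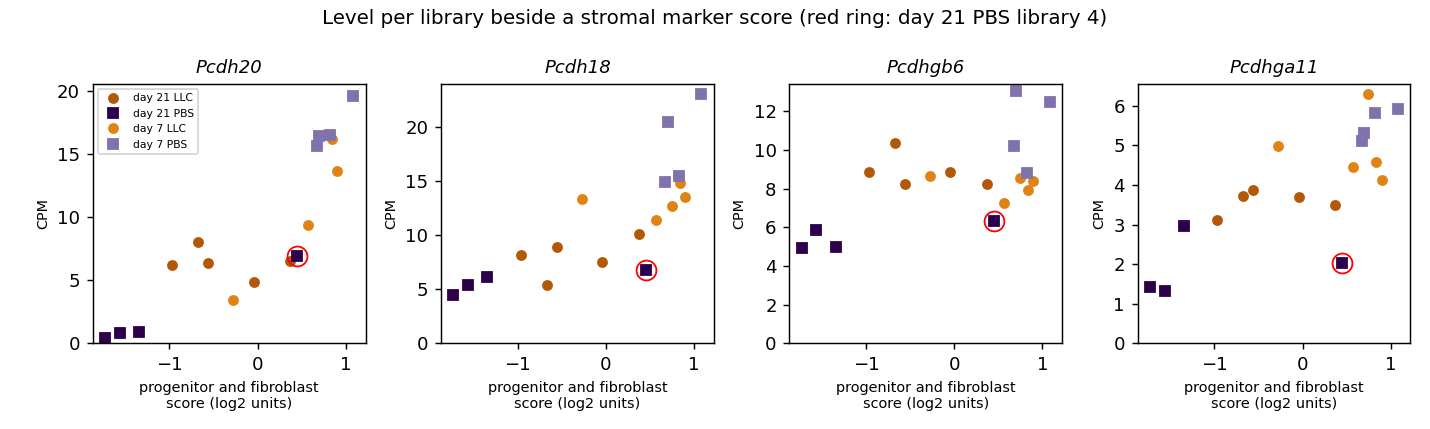
CPM (vertical axes, linear, from 0) of 4 genes against the progenitor and fibroblast score (horizontal axes, log2 units), with 1 point per library, circles for LLC and squares for PBS, and a red ring around day 21 PBS library 4. The ringed library lies with its own group in level for Pcdh18, Pcdhgb6 and Pcdhga11, though it is the highest of that group for Pcdh18 and Pcdhgb6. For Pcdh20, at 6.94 CPM, it stands above the other day 21 PBS libraries (0.391 to 0.881 CPM).

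Pcdh15, a tip-link protein of inner ear hair cells, was chosen for mention after its values were seen. It had 241 counts in day 21 LLC library 3, 3 counts in day 7 LLC library 1 and 0 in the other libraries. Day 21 LLC library 3 is the library with the B cell score of 7.36, where B cell markers summed to 1125 CPM against at most 10.7 CPM elsewhere, and the link between them was not tested. The gene did not pass the filter on low counts.

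Genes that act on or with protocadherins were read from 3 lists. Of 22 genes for promoter choice and chromatin, all tested, edgeR called 0 between LLC and PBS on either day. DESeq2 called 2 of them higher at day 21, against 800 of all 13564 genes, and 0 at day 7. The median log2 fold change of the list was 0.27 at day 21 and 0.04 at day 7, against 0.02 and 0.00 over all genes. An unadjusted p under 0.05 was found for 7 and 1 of the 22, against 23.3% and 8.51% of all genes. The cohesin subunits Smc3 (0.39 ± 0.09, adjusted p = 0.0751) and Smc1a (0.41 ± 0.11, 0.0851) had the smallest p at day 21, and Wiz, a zinc finger partner of CTCF (-0.15 ± 0.06, 0.538), and Smchd1, a repressor of the arrays (0.11 ± 0.07, 0.712), at day 7. Smc1a rose between days within LLC (0.34 ± 0.08, adjusted p = 0.0498), 1 of 22 against 1.77% of all genes called. With 1 library of these groups left out, edgeR called 0 to 3 of the 22 there. It called 3 without day 21 LLC library 2 (602 of all 13924 genes) and 2 without day 21 LLC library 1 (1036 of 13923). It called 0 without any 1 of day 7 LLC libraries 1 to 4 or day 21 LLC libraries 4 and 5.

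Of 27 genes for cleavage and intracellular partners, 26 were tested and edgeR called 0 between LLC and PBS on either day. An unadjusted p under 0.05 was found for 5 at day 21 and 1 at day 7, against 23.3% and 8.51% of all genes. DESeq2 called 1 higher at day 21, against 800 of 13564 genes, and 0 at day 7. The smallest p belonged to the receptor Ret at day 21 (0.72 ± 0.21, adjusted p = 0.106) and the actin regulator Wasf1 at day 7 (-0.59 ± 0.25, 0.56). Between days within PBS, 3 fell: the kinase Fyn (-1.07 ± 0.26, adjusted p = 0.0392), the membrane and actin protein Marcks (-0.95 ± 0.24, 0.0435) and the actin regulator Wasf2 (-0.36 ± 0.09, 0.0467), 3 of 26 against 2.52% of all genes called lower. Without day 21 PBS library 4, 5 fell, against 1202 of 14146 genes, and without any other 1 of these 8 libraries 0 passed. At day 21, edgeR called 1 higher in LLC without day 21 PBS library 4, against 798 of 13726 genes. Among 42 other cadherins, 17 to 21 were tested in a comparison and edgeR called 0 between LLC and PBS. An unadjusted p under 0.05 was found for 5 of 20 at day 21 and 3 of 17 at day 7, against the same 23.3% and 8.51%. DESeq2 called 1 lower on each day, against 755 of 13564 genes at day 21 and 18 of 13445 at day 7. The smallest p belonged to Cdh19 at day 21 (-0.85 ± 0.23, adjusted p = 0.0926) and Fat1 at day 7 (-0.26 ± 0.07, 0.383). The giant cadherins Fat1 (-0.73 ± 0.11, adjusted p = 0.00277) and Fat4 (-1.06 ± 0.18, 0.00805) fell between days within PBS, 2 of 21 against the same 2.52%. Fat1 also fell within LLC (-0.39 ± 0.09, 0.0465), 1 of 21 against 0.93% of all genes called lower. Within PBS, 2 were called lower without any 1 library other than day 21 PBS library 4, against 41 of 14149 to 165 of 14153 genes. Without that library 2 were called higher and 3 lower, against 490 and 1202 of 14146 genes. Within LLC, edgeR called 0 without any 1 day 7 LLC library or day 21 LLC library 3, 4 or 5. It called 2 lower without day 21 LLC library 2, against 268 of 13924 genes. Without day 21 LLC library 1 it called 2 lower and 1 higher, against 523 and 513 of 13923 genes. At day 21, edgeR called 1 cadherin higher in LLC without day 21 PBS library 4, against the same 798 of 13726 genes.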

How the data were processed

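Poly(A)-enriched RNA of inguinal fat was sequenced in 18 libraries, with NEBNext Ultra kits per the labels' protocols. The authors deposited 1 table per day with estimated counts, TPM, a log2 ratio of mean TPM, p-values and FDR per gene. The submitters' processing notes name fastp 0.23.0, RSEM without a version, and the builds mm10 and GRCm38, with no annotation named. These deposited estimated counts are whole numbers and were used as they stand. The deposited TPM are scaled by the authors for length and served to compare levels between genes. The deposited log2 and p-value columns are the authors' own and are quoted as such.

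All genes were fitted in edgeR 4.0.16 (R 4.3.3) with TMM scaling, filterByExpr and two-sided quasi-likelihood tests, Benjamini-Hochberg adjusted over all genes at 0.05. Each day was fitted by itself (9 libraries) for LLC over PBS. The difference of effects and the comparisons of days came from 1 fit of 18 libraries with 4 group means. SE were taken as absolute log2 fold change over the square root of F. Alternatives were DESeq2 1.42.0, DESeq2 size factors, limma 3.58.1 on log2(TPM + 1) and log2(TPM + 0.1), other filters, robust fits, blocks and left-out libraries. The fitting script was tested on simulated data. Total counts of 14566155 to 18969387 per library limit precision for genes of a few CPM, and limits set by counts cover counting error only.

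Day 7 LLC and PBS libraries with the same number had positively correlated deviations (0.28, 0.13, 0.54 and 0.22), though number 2 was not its own best match. The numbers come from the sample titles, and the main day 7 fit did not pair them. A block on the number was run as an alternative. Each fit called 0 members and 1 of all genes at day 7, and the block changed the direction of some gamma genes. Named were tested single genes, the 4 most expressed genes of each array, all members past the threshold, the 3 smallest p per comparison, and in other lists those past the threshold or with the smallest p. Members and lists were chosen with earlier results of these data known. Marker scores are means of log2(CPM + 0.5) distances. Exon overlap and shared 50-base stretches were counted on GENCODE transcripts of GRCm38, which matched all 69 members. The deposited Pcdha10 ID carries another symbol, Pcdha11, there. Promoter windows come from RefSeq and matched 9 members outside chromosome 18.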

Additional observations from a re-analysis of the deposited data

Results flagged for a closer look

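Among 199 sets of group values over the 50 tested members, 14 held a library far from the rest of its group by Dixon's criterion, which chance alone meets in about 1 in 20 sets. In day 21 LLC, Pcdhgc5 was high in library 1 (2.31 CPM), Pcdhga7 low in library 4 (2.66 CPM) and Pcdhgb2 high in library 5 (12.1 CPM). In day 21 PBS, library 4 was high for Pcdh20 (6.94 CPM) and Pcdhac2 (1.54 CPM), library 3 was high for Pcdh17 (10.5 CPM) and low for Pcdhb8 (0.391 CPM), and library 1 was low for Pcdhb18 (1.14 CPM). In day 7 LLC, Pcdhb18 was high in library 5 (3.44 CPM). In day 7 PBS, library 4 was high for Pcdhb15 (1.52 CPM) and Pcdhgb4 (6.14 CPM) and low for Pcdhgc4 (44.0 CPM), library 1 was high for Pcdhb20 (3.93 CPM) and library 3 was low for Pcdhgc5 (0.554 CPM). The effect of the tumour on Pcdhgb6 differed between days in the test of that difference, by 1.14 on the log2 scale (edgeR adjusted p = 0.0191). Between days, the gene fell within PBS (log2 fold change -1.01) and was not called within LLC.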

How the results depend on the processing

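At day 7, all 18 alternatives called 0 members. DESeq2 called 80 of 13445 genes there, and every other alternative at most 3 genes. For the other comparisons, counts over all genes in the same fits follow in brackets. At day 21 (0 called), DESeq2 called 3 (1555 of 13564 genes) and 1 fit of all 18 libraries 4 (2660 of 13975). Leaving out day 21 PBS library 4 with LLC libraries 1 and 3 called 1, Pcdh20 (962 of 13392). Leaving out 1 library gave 0 to 4 (0 of 13777 to 1277 of 13726). For the difference between days (1 called), DESeq2 called 3 (722 of 13975), and leaving out 1 library gave 0 to 5 (6 of 14152 to 1222 of 14146). Within LLC (1 called), no filter on low counts called 0 (139 of 18337) and a replicate block 0 (80 of 13913). Leaving out 1 library gave 0 to 2 there (15 of 13944 to 1036 of 13923). Within PBS (4 called), DESeq2 called 6 (1109 of 13975), adding Pcdh19 and Pcdhga3, and leaving out 1 library gave 3 to 7 (41 of 14149 to 1692 of 14146). Among the fits that left out 1 library, those without day 21 PBS library 4 gave the highest counts at day 21, between days and within PBS. The block called 0 members at day 7 (1 of 13374) and at day 21 (2 of 13441). It called 1, Pcdhgb6, for the difference (75 of 13913) and 5 within PBS (485 of 13913), where Pcdhgb2 was added. The blocks across days were chosen after seeing the data. The samples share only a number. Outside day 7, correlations of same-numbered libraries were -0.26 to 0.32 at day 21, -0.26 to 0.07 between days in LLC and -0.36 to 0.56 in PBS. For the members followed one by one, 246 alternatives kept direction and side of the threshold, 21 lost the threshold, 13 gained it and 0 reversed. These members were past the threshold or had the 3 smallest p of a comparison, and the alternatives largely share libraries. A reversal was therefore unlikely from the start, and other gamma genes did change direction, as given above. On the log2(TPM + 1) scale the median of all genes at day 21 shifted to 0.13, from 0.02, and 10 of 12 A-type genes were then positive. The cause was not tested. Depth limits the alpha genes, most of which did not pass the filter on low counts.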
